A study of Homo sapiens with 36 samples.

Results

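RNA sequencing of LNCaP cells was examined for 10 genes grouped as regulators of the ubiquitin ligases of the cell cycle. CDC20, FZR1, FBXO5, UBE2C, UBE2S and PTTG1 act on or through the anaphase-promoting complex (APC/C). SKP2, CKS1B and CCNF belong to or assist the SCF ligases, and CKS2 is the paralogue of CKS1B. The members were given by name, and each was found by its Ensembl identifier as 1 row of the 29872 rows of normalised counts. LNCaP is an established human prostate cancer cell line. Cells received vehicle, the CDK4-selective inhibitors AU2-94 (1 or 2 µM) or atirmociclib (1 or 2 µM), or the CDK4/6 inhibitor ribociclib (2 µM), for 24 h or 72 h, with 3 replicates in each of 12 groups and 36 libraries in all. Vehicle samples carry a 2 µM dose entry in the labels as well. Wells harvested at 72 h were seeded more sparsely than those harvested at 24 h, so that time and seeding density cannot be told apart in comparisons between time points.

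Ubiquitin ligases drive the cell cycle forward by marking proteins for destruction at set times. APC/C works from mitosis to the end of G1 phase. CDC20 is its activator at the onset of anaphase, FZR1 (also called CDH1) its activator in late mitosis and G1, and FBXO5 (EMI1) its inhibitor during S and G2 phases. UBE2C starts ubiquitin chains on APC/C substrates, UBE2S extends them, and PTTG1 (securin) is the substrate whose loss frees separase to part the sister chromatids. SCF ligases pair a fixed core with exchangeable F-box proteins. SKP2 is the F-box protein that, with its cofactor CKS1B, leads the CDK inhibitor p27 to destruction. CKS2 is the paralogue of CKS1B, and CCNF (cyclin F) is an F-box protein of S and G2 phases. CDK4 inhibitors act upstream, on the phosphorylation of RB that releases E2F transcription factors, and many of these genes are known targets of E2F or of the late cell cycle complexes that bind CHR elements.

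Promoter sequence is shown for 4 members as examples. CDC20, CKS2 and PTTG1 hold both motifs of late cell cycle promoters close to the start site, whereas UBE2S does not. Every member lay below vehicle at 24 h, with log2 fold changes of -1.28 to -1.04 for UBE2S and -0.75 to -0.45 for CKS2. A link between these motifs and the response was not tested. The 100 bases before the RefSeq start site are given 5′ to 3′ on the gene's strand (GRCh38.p14), for CDC20 chr1:43358881-43358980 (+), CKS2 chr9:89311095-89311194 (+), PTTG1 chr5:160421755-160421854 (+, the more upstream of 2 promoters) and UBE2S chr19:55407789-55407888 (-). Capitals mark matches on either strand to CHR (TTTGAA or TTTAAA) or to CCAAT, and capitals at an edge belong to a match that begins outside the window.
CDC20: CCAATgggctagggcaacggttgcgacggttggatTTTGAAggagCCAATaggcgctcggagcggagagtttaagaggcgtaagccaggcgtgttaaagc
CKS2: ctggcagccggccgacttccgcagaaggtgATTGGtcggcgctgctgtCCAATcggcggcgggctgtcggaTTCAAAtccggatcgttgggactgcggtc
PTTG1: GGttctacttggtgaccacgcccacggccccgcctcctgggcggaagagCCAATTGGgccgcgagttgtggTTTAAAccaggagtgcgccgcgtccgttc
UBE2S: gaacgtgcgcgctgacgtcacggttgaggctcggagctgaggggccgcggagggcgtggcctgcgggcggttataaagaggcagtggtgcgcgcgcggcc

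Of the 10 members, 9 had a tabulated promoter (250 bases before to 50 bases after the start), and 3 of these (FBXO5, FZR1 and PTTG1) had 2. A CHR match was present in a promoter of 7 members and a CCAAT match in a promoter of 7. CKS1B, CKS2, FBXO5, CDC20, CCNF and PTTG1 held both within 1 promoter. Of 35116 promoters of this length, 24.0% held a CHR match, 34.6% a CCAAT match and 9.27% both. No member held any of 4 E2F motifs searched on both strands (TTTGGCGC, TTTCCCGC, TTTGCCGC or TTTCGCGC), which were present in 3.31% of all promoters. These matches describe letters in a window, not sites in use.

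The normalised counts summed to between 20675156 and 22692555 per library, with 19708 to 21405 genes above 0. The LNCaP markers KLK3, KLK2, TMPRSS2, HOXB13 and FOLH1 were each at 2239 normalised counts or more in every library, and KRT5, TP63, COL1A2, PTPRC and PECAM1, markers of basal epithelial, stromal, immune and endothelial cells, had a median of 0 and did not pass 7.09. The sum of these 5 LNCaP markers moved with treatment. It was 53577 to 59651 in the vehicle libraries and 74214 to 116031 in the treated libraries. Mitochondrial transcripts made up 6.45% to 6.60% of the normalised counts in vehicle and 7.28% to 7.70% in atirmociclib at 2 µM at 24 h, and 6.76% to 7.42% and 8.33% to 8.66% at 72 h. The AU2-94 libraries held 6.34% to 6.89% at 24 h and 7.01% to 7.43% at 72 h, so that this share also differed between the agents compared below. The part of either shift in the differences below was not tested.

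All 10 members passed the filter on low values (10 normalised counts in at least 3 libraries), and for each the vehicle mean was the highest of the 6 groups at 24 h and of the 6 at 72 h. For FZR1 at 72 h that mean rests on the second vehicle library (1494, beside 915 and 887 in the others). All 15 treated libraries lay below all 3 vehicle libraries for each of the 10 members at 24 h, a pattern shown by 10.7% of the 16137 genes tested. At 72 h this held for 8 of the 10 members, all except CKS2 and FZR1, against 11.3% of 16341 genes. In these bulk samples, fewer cells expressing a gene and less RNA of that gene in each cell cannot be told apart.

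By limma's moderated test on log2(normalised count + 1), with an adjusted p of at most 0.05, AU2-94 at 1 and 2 µM lowered 9 and 10 of the 10 members at 24 h. Atirmociclib lowered all 10 at both doses and ribociclib 9. The exceptions were FZR1 in AU2-94 at 1 µM and in ribociclib. Over all genes tested, 13.5%, 14.9%, 15.4%, 16.2% and 15.2% were lower in AU2-94 1 and 2 µM, atirmociclib 1 and 2 µM and ribociclib. In the same order, 14.3%, 16%, 16.6%, 18.6% and 16.8% were higher, and no member was. A decrease of at least 1 on the log2 scale was found in each treatment for the same 6 members (CDC20, FBXO5, UBE2C, UBE2S, PTTG1 and CCNF), compared with 2.4%, 2.94%, 4.22%, 4.82% and 3.66% of all genes. The median log2 fold change of the 10 members was -1.22, -1.53, -1.56, -1.35 and -1.49. Medians of all genes lay between -0.009 and 0.024 over all contrasts fitted, those between treatments or time points included.

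At 72 h, AU2-94 at 1 and 2 µM lowered 9 and 8 members, atirmociclib 9 at each dose and ribociclib 8. FZR1 was not called in any treatment, and CKS2 was not called in AU2-94 at 2 µM or in ribociclib. The shares of all genes that were lower were 17%, 15.3%, 19.8%, 19.6% and 15.4%. No member was higher, while 15.4%, 14.2%, 20%, 20.9% and 15.5% of all genes were. A decrease of at least 1 was found for no member in AU2-94 at either dose, for the 6 members named above in atirmociclib at both doses, and for FBXO5 alone in ribociclib. Over all genes these shares were 0.869%, 0.838%, 2.67%, 3.67% and 1.54%. Without the second ribociclib library, 2 members were past it there. The median of the members was -0.60 in AU2-94 at each dose, -1.11 and -1.25 in atirmociclib and -0.73 in ribociclib.

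**Figure D1:**
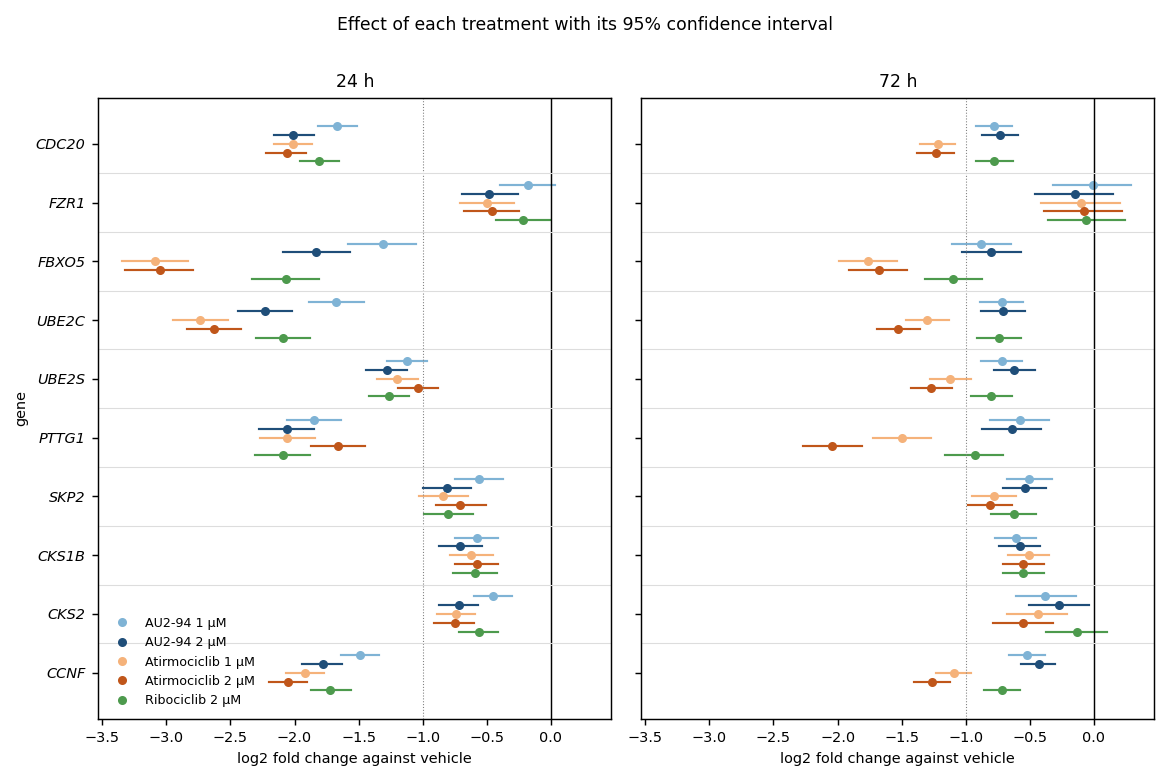
Log2 fold change of each treatment against vehicle (x axis) for the 10 members (y axis) at 24 h and 72 h, with points for the limma estimates and lines for their 95% confidence intervals. The dotted line marks -1. At 72 h the atirmociclib points for FBXO5, UBE2C, UBE2S, PTTG1, CDC20 and CCNF lie left of the AU2-94 and ribociclib points.

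CDC20 (ENSG00000117399, chr1:43358981-43363203, + strand), the anaphase activator of APC/C, had 1949, 1984 and 1932 normalised counts in the vehicle libraries at 24 h. It had 617, 614 and 615 in AU2-94 at 1 µM, 444, 522 and 496 at 2 µM, and 560, 553 and 560 in ribociclib. In atirmociclib it had 472, 471 and 511 at 1 µM and 480.2, 499.7 and 425 at 2 µM. The treated groups kept between 24.0% and 31.5% of the vehicle mean, and none of their libraries came near the vehicle range. Against vehicle, log2 fold changes ran from -1.67 in AU2-94 at 1 µM (SE 0.07, adjusted p = 1.69e-11) to -2.06 in atirmociclib at 2 µM (SE 0.07, adjusted p = 1.58e-13). At 72 h the vehicle libraries held 2023, 2237 and 2096, and the group means in treated cells were 901 to 1280.0, or 42.5% to 60.4% of vehicle. The lowest 6 libraries at 72 h were those of atirmociclib, at 890.4 to 922. As log2 fold changes, the effects at 72 h were -1.22 and -1.23 in atirmociclib at 1 and 2 µM, -0.78 and -0.73 in AU2-94 and -0.78 in ribociclib (SE 0.07).

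FZR1 (ENSG00000105325, chr19:3506311-3538334, + strand), the G1 activator, changed least. Its vehicle libraries at 24 h held 884, 884 and 1063 normalised counts, and the treated libraries held 594 to 875, just below them. The change passed the test in AU2-94 at 2 µM (log2 fold change -0.48, SE 0.10, adjusted p = 0.00142) and in atirmociclib at 1 µM (-0.50, adjusted p = 0.000895) and 2 µM (-0.46, adjusted p = 0.00148). It did not in AU2-94 at 1 µM (-0.18, 95% confidence interval -0.40 to 0.03, adjusted p = 0.198) or in ribociclib (-0.22, -0.43 to -0.01, adjusted p = 0.113). At 72 h the vehicle libraries held 915, 1494 and 887, so that the second vehicle library stood far above the others, and no treated library (916 to 1171) lay below all of them. The log2 fold changes at 72 h were between -0.15 and -0.01, with SE 0.14, and none passed the test. Without the second vehicle library all 5 turned positive, at 0.23 and 0.09 in AU2-94 at 1 and 2 µM, 0.14 and 0.16 in atirmociclib and 0.18 in ribociclib. Without the first library of AU2-94 at 1 µM the value there was 0.02, and without the second ribociclib library the value in ribociclib was 0.01. The value in AU2-94 at 1 µM was positive after quantile normalisation (0.04) or scaling to equal totals (0.02). A stretch of 74 exonic bases (1.14% of the exons of FZR1) overlaps MFSD12 on the opposite strand.

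FBXO5 (ENSG00000112029, chr6:152970519-152983579, - strand), the inhibitor of APC/C, showed the widest range between treatments at 24 h. The vehicle libraries at 24 h held 618, 624 and 633 normalised counts. Those of atirmociclib held 66.6, 74.5 and 76.9 at 1 µM and 74.2, 70.6 and 78.3 at 2 µM, the lowest libraries of the gene. Those of AU2-94 held 281, 225 and 249 at 1 µM and 153, 194 and 181 at 2 µM, and those of ribociclib 138, 138 and 169.8. The 3 agents did not overlap except for ribociclib and AU2-94 at 2 µM. Against vehicle, log2 fold changes were -3.09 and -3.05 in atirmociclib at 1 and 2 µM (SE 0.12, adjusted p = 8.86e-13 and 1.11e-12), -1.31 and -1.83 in AU2-94 and -2.07 in ribociclib (SE 0.12 each, adjusted p of at most 2.98e-07). At 72 h the vehicle libraries held 666, 754 and 664. Those of atirmociclib held 221, 206 and 185 at 1 µM and 220.0, 188 and 241 at 2 µM. Those of AU2-94 held 407, 378 and 347 at 1 µM and 418, 368 and 409 at 2 µM, and those of ribociclib 335, 339 and 297. The order of the agents at 72 h was again atirmociclib, ribociclib and AU2-94 from lowest to highest. As log2 fold changes, the effects at 72 h were -1.76 and -1.68 in atirmociclib, -0.88 and -0.80 in AU2-94 and -1.10 in ribociclib (SE 0.11). A lncRNA on the opposite strand (ENSG00000227627, at most 133 normalised counts in any library) shares 157 bases, or 4.07%, of the exons of FBXO5.

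UBE2C (ENSG00000175063, chr20:45812576-45816957, + strand), which starts ubiquitin chains for APC/C, also fell in every treatment. It had 1279, 1255 and 1250.2 normalised counts in vehicle at 24 h. In atirmociclib it had 184, 208 and 175 at 1 µM and 196, 204 and 209 at 2 µM. In AU2-94 it had 383, 396 and 403 at 1 µM and 226, 314 and 271 at 2 µM, and in ribociclib 303, 294 and 290.0. The atirmociclib libraries were the lowest 6, and the groups kept 15% to 31.2% of the vehicle mean. The log2 fold changes were -2.74 and -2.63 in atirmociclib, -1.68 and -2.23 in AU2-94 and -2.09 in ribociclib (SE 0.10, adjusted p of at most 1.08e-09). At 72 h vehicle held 1301, 1260 and 1378 and atirmociclib 557, 569 and 475 at 1 µM and 447, 460.0 and 458 at 2 µM. AU2-94 and ribociclib held between 728 and 871 at 72 h, with no library in the atirmociclib range. Against vehicle, log2 fold changes at 72 h were -1.30 and -1.53 in atirmociclib, -0.72 and -0.71 in AU2-94 and -0.74 in ribociclib (SE 0.08).

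UBE2S (ENSG00000108106, chr19:55399745-55407788, - strand), which extends the chains, had 3808, 3686 and 3732 normalised counts in vehicle at 24 h and 1390.3 to 1914 over the 15 treated libraries. Unlike UBE2C, it kept a like share of the vehicle mean in every treatment, 41.4% to 48.7%. Its log2 fold changes were between -1.28 in AU2-94 at 2 µM and -1.04 in atirmociclib at 2 µM (SE 0.07, adjusted p of at most 3.36e-09). At 72 h vehicle held 4400, 4843 and 3996. Atirmociclib at 2 µM held 1811, 1793 and 1863, nearly the level it had at 24 h (1914, 1767 and 1791), while AU2-94 at 2 µM held 1390.3, 1711 and 1541 at 24 h and 3026, 2786 and 2763 at 72 h. As log2 fold changes, the effects at 72 h were -1.12 and -1.27 in atirmociclib, -0.72 and -0.62 in AU2-94 and -0.80 in ribociclib (SE 0.08). Reads may be shared with the pseudogenes UBE2SP1 and UBE2SP2, which match UBE2S at 98.8% identity over 669 bases and 98.2% over 497, so its level is uncertain to that extent.

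PTTG1 (ENSG00000164611, chr5:160421855-160428739, + strand), the securin, was 1 of the members whose order of treatments changed between time points. At 24 h it had 1612, 1613 and 1669 normalised counts in vehicle. It had 469, 445 and 441 in AU2-94 at 1 µM and 374, 386 and 410 at 2 µM, and 408, 392 and 348 in ribociclib. In atirmociclib it had 373, 393 and 407 at 1 µM and 634, 445 and 485 at 2 µM. Atirmociclib at 2 µM was thus the highest treated group at 24 h, with its first library above the others. The log2 fold changes at 24 h were -2.09 in ribociclib, -2.06 in atirmociclib at 1 µM and in AU2-94 at 2 µM, -1.85 in AU2-94 at 1 µM and -1.66 in atirmociclib at 2 µM (SE 0.10, adjusted p of at most 3.81e-10). At 72 h vehicle held 1815, 1615 and 1585. Atirmociclib at 2 µM held 411, 415 and 390.4 and at 1 µM 585, 552 and 638. AU2-94 held 1084, 1172 and 1100.0 at 1 µM and 1087, 966 and 1164 at 2 µM, and ribociclib 738, 1083 and 831. Atirmociclib at 2 µM was now the lowest group, and its libraries did not overlap those of any other. Against vehicle, log2 fold changes at 72 h were -2.04 and -1.50 in atirmociclib at 2 and 1 µM, -0.93 in ribociclib and -0.64 and -0.58 in AU2-94 at 2 and 1 µM (SE 0.11).

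SKP2 (ENSG00000145604, chr5:36151989-36196849, + strand), the F-box protein that recognises p27, had 1664, 1583 and 1415 normalised counts in vehicle at 24 h and 802 to 1091 in the treated libraries. At 72 h it had 1879, 1866 and 1806 in vehicle and 958 to 1386 in treated cells. It kept 56.0% to 67.7% of the vehicle mean at 24 h and 57.1% to 70.7% at 72 h, so that its decrease was nearly the same at both. As log2 fold changes, the effects were between -0.84 in atirmociclib at 1 µM and -0.56 in AU2-94 at 1 µM at 24 h (SE 0.09, adjusted p of at most 0.000167) and between -0.81 in atirmociclib at 2 µM and -0.51 in AU2-94 at 1 µM at 72 h (SE 0.08, adjusted p of at most 0.000101). Of the exons of SKP2, 365 bases (2.1%) overlap NADK2 on the opposite strand, a gene of similar level.

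CKS1B (ENSG00000173207, chr1:154974653-154979251, + strand), the cofactor of SKP2, had the most even response. Its vehicle libraries held 857, 865 and 791 normalised counts at 24 h and 1006, 971 and 976 at 72 h. Treated libraries held 489.7 to 609 at 24 h and 598 to 728 at 72 h. The 10 log2 fold changes lay between -0.71 and -0.51 (SE 0.08), each past the test with an adjusted p of at most 2.75e-05. Reads may be shared with pseudogenes such as CKS1BP3, which matches CKS1B at 99.6% identity over 237 bases, so its level is uncertain to that extent. The same holds for CDC20 and CDC20P1 (96.3% over 1503 bases) and for PTTG1 and PTTG3P (95.1% over 244 bases).

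CKS2 (ENSG00000123975, chr9:89311195-89316703, + strand), the paralogue, had 809, 801 and 801 normalised counts in vehicle at 24 h and 462 to 624 in treated cells. The log2 fold changes at 24 h were -0.45 and -0.72 in AU2-94, -0.74 and -0.75 in atirmociclib and -0.56 in ribociclib (SE 0.07, adjusted p of at most 0.000118). At 72 h its vehicle libraries held 909.8, 974 and 746 and overlapped those of ribociclib (810.0, 881 and 702) and 1 library of AU2-94 at 1 µM (769). CKS2 fell in atirmociclib at 1 and 2 µM (-0.44 and -0.55, adjusted p = 0.00412 and 0.000609) and in AU2-94 at 1 µM (-0.38, adjusted p = 0.014). The last was lost when the second AU2-94 library or the first or second vehicle library was left out, with values of -0.49 to -0.29 over all libraries left out in turn. The values were -0.27 in AU2-94 at 2 µM (95% confidence interval -0.51 to -0.04, adjusted p = 0.0769) and -0.13 in ribociclib (-0.37 to 0.10, adjusted p = 0.402). The former passed the test without the third vehicle library (-0.38) and in a fit of all 36 libraries (-0.27).

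CCNF (ENSG00000162063, chr16:2429394-2458854, + strand), cyclin F, had 1545, 1478 and 1465 normalised counts in vehicle at 24 h. It had 537, 539.6 and 517 in AU2-94 at 1 µM and 444, 415 and 443 at 2 µM, and 481, 456 and 429.6 in ribociclib. In atirmociclib it had 405, 369 and 411 at 1 µM and 387, 339 and 358 at 2 µM, the lowest group mean. Against vehicle, log2 fold changes at 24 h were -1.49 and -1.78 in AU2-94, -1.92 and -2.05 in atirmociclib and -1.72 in ribociclib (SE 0.07, adjusted p of at most 6.66e-11). At 72 h vehicle held 1446, 1628 and 1484, AU2-94 1035 to 1151, ribociclib 859.9 to 980.3 and atirmociclib 616 to 752. The 3 agents did not overlap for CCNF at 72 h. As log2 fold changes, the effects were -0.52 and -0.43 in AU2-94, -1.09 and -1.26 in atirmociclib and -0.72 in ribociclib (SE 0.07). The lncRNAs ENSG00000260874 and ENSG00000285970 on the opposite strand share 3.47% and 8.35% of its exons, and the former did not pass 34.5 normalised counts.

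Levels of different genes can be compared only per length. In vehicle at 24 h, PTTG1 was the highest member at 2281 ± 46.3 normalised counts per kilobase of the reference transcript (SD, n = 3), followed by UBE2C at 1623 ± 19.4, UBE2S at 1462 ± 24.0 and CKS2 at 1305 ± 7.81. CDC20 and CKS1B had 1186 ± 15.9 and 1075 ± 52.1. SKP2, CCNF, FBXO5 and FZR1 had 418 ± 34.1, 354 ± 10.2, 304 ± 3.56 and 182 ± 19.9. By this length, the E2 enzymes and securin were higher per kilobase than either activator or the inhibitor of APC/C. The order depends on the length used. All annotated exons together span 1975 bases for PTTG1 against 715 in its reference transcript, and 1286 against 777 for UBE2C. For CDC20 they span 2012 against 1649. Which transcripts the cells use was not tested. In vehicle, no member passed the test between 72 h and 24 h by limma, at log2 differences of 0.02 to 0.25, compared with 7.5% of the 16850 genes tested. Of the 10 members, 3 (CKS1B, SKP2 and UBE2S) had an unadjusted p under 0.05. Without the third vehicle library of 72 h, 1 member was called.

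Ratios of members within a library showed where the balance of partners shifted. The log2 ratio of CDC20 to FZR1 was 1.06 ± 0.17 in the 3 vehicle libraries at 24 h and -0.49 ± 0.10 in the 15 treated libraries (SD), a difference of -1.54. The ratio of FBXO5 to FZR1, inhibitor to activator, moved by -1.90, from -0.59 ± 0.14 to -2.49 ± 0.64. That of UBE2C to UBE2S moved by -1.09, from -1.57 ± 0.01 to -2.66 ± 0.43. Each had a p of 0.00123 in a two-sided exact permutation test over 816 splits, the smallest these splits can give, and an adjusted p of 0.00306 over 10 ratios and time points. At 72 h the differences were -0.87 for CDC20 to FZR1 (adjusted p = 0.0049, exact permutation test), -1.16 for FBXO5 to FZR1 (adjusted p = 0.00306) and -0.09 for UBE2C to UBE2S (adjusted p = 0.466). The ratio of SKP2 to its cofactor CKS1B differed by -0.13 at 24 h and -0.09 at 72 h (adjusted p = 0.233 and 0.546), and that of CKS1B to CKS2 by 0.03 and -0.21 (adjusted p = 0.683 and 0.233). None of these 4 passed the exact permutation test. These tests pool the 5 treatments, so that shifts of opposite sign can cancel. For SKP2 to CKS1B at 72 h the treated libraries ran from 0.45 to 1.21, and vehicle from 0.89 to 0.94. SKP2 then fell by -0.78 and -0.81 in atirmociclib, where CKS1B fell by -0.51 and -0.55. In AU2-94 SKP2 fell by -0.51 and -0.54, and CKS1B by -0.61 and -0.58. In ribociclib the values were -0.62 and -0.55. The ratio was not tested for each agent.

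**Figure D2:**
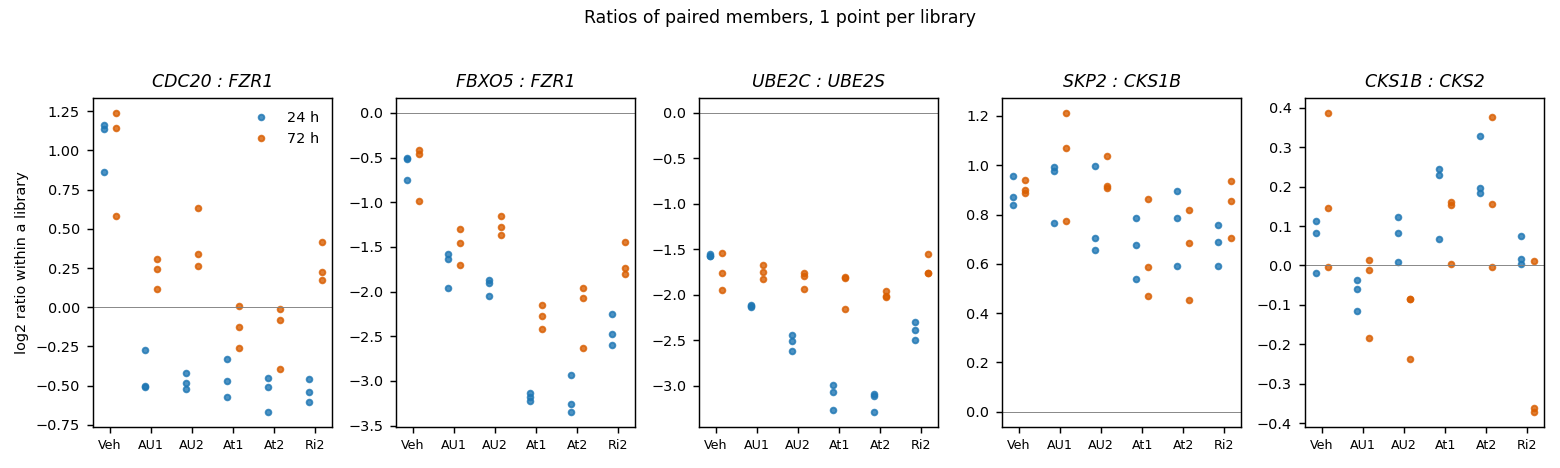
Log2 ratio of paired members within each library (y axis, 1 point per library) in vehicle (Veh), AU2-94 1 and 2 µM (AU1, AU2), atirmociclib 1 and 2 µM (At1, At2) and ribociclib 2 µM (Ri2) at 24 h (blue) and 72 h (orange). CDC20 to FZR1 and FBXO5 to FZR1 lie lower in treated libraries at both times, UBE2C to UBE2S at 24 h, and the ratios of SKP2, CKS1B and CKS2 overlap vehicle.

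Atirmociclib and AU2-94 were compared directly at matched doses and times. At 1 µM and 24 h, 5 of 10 members were lower in atirmociclib, against 4.64% of all genes different in either direction: FBXO5 (log2 difference -1.77, SE 0.12, adjusted p = 2.15e-08), UBE2C (-1.06, SE 0.10, adjusted p = 1.20e-06), CCNF (-0.43), CDC20 (-0.34) and CKS2 (-0.29, adjusted p = 0.0261). The call for CKS2 was lost without the first or the third AU2-94 library or any atirmociclib library (-0.30 to -0.24). At 2 µM and 24 h, 5 members differed, against 9.44% of all genes. FBXO5 (-1.23, SE 0.12, adjusted p = 7.92e-06), UBE2C (-0.40, adjusted p = 0.0172) and CCNF (-0.26, adjusted p = 0.0273) were lower in atirmociclib, whereas PTTG1 (0.40, SE 0.10, adjusted p = 0.0178) and UBE2S (0.24, SE 0.07, adjusted p = 0.0492) were higher. The call for UBE2S was lost with the replicate number as a block (adjusted p = 0.0698), and with the fit restricted to these 2 groups only 1 of the 5 calls remained. That member was FBXO5. Leaving out 1 library in turn left 2 to 4 of the 5 called. The calls lost were PTTG1 without the first library of atirmociclib (0.25) or of AU2-94 (0.37), and UBE2C without the first of atirmociclib (-0.37) or the second of AU2-94 (-0.29). UBE2S was lost without any of the 3 atirmociclib libraries or the first or the third of AU2-94 (0.17 to 0.26), and CCNF without the second or the third of atirmociclib or the first or the third of AU2-94 (-0.26 to -0.22).

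At 72 h the difference between atirmociclib and AU2-94 took in more members. At 1 µM, 7 members were lower in atirmociclib, against 8.24% of all genes different: PTTG1 (-0.92), FBXO5 (-0.88), UBE2C (-0.58), CCNF (-0.57), CDC20 (-0.44), UBE2S (-0.40) and SKP2 (-0.28). At 2 µM the same 7 were lower, against 19.8%: PTTG1 (-1.40, SE 0.11, adjusted p = 3.11e-08), FBXO5 (-0.88), CCNF (-0.83), UBE2C (-0.82), UBE2S (-0.65), CDC20 (-0.50) and SKP2 (-0.27, adjusted p = 0.023). The call for SKP2 at 1 µM (adjusted p = 0.0427) was lost with the replicate block (adjusted p = 0.0615) or without the second or the third library of either group (-0.29 to -0.19). That at 2 µM was lost without the first or second library of either group (-0.28 to -0.23). CKS1B differed by 0.10 (95% confidence interval -0.06 to 0.26) at 1 µM and by 0.03 (-0.13 to 0.19) at 2 µM, and FZR1 by -0.09 (-0.39 to 0.21) and 0.07 (-0.23 to 0.38).

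Between ribociclib and AU2-94 at 2 µM few members were called. At 24 h no member passed limma's test, whereas 0.0372% of all genes did, and 3 members had an unadjusted p under 0.05 (CDC20, CKS2 and FZR1). FBXO5 differed by -0.24 (95% confidence interval -0.51 to 0.02) and UBE2C by 0.14 (-0.07 to 0.35). At 72 h CCNF alone was called, lower in ribociclib (-0.28, SE 0.07, adjusted p = 0.0221), against 3.34% of all genes different. This call was lost when only these 2 groups were fitted, without any 1 of the AU2-94 libraries, or without the second of ribociclib (-0.30 to -0.23). FBXO5 (-0.30, 95% confidence interval -0.52 to -0.07, adjusted p = 0.147) and PTTG1 (-0.29, -0.52 to -0.07, adjusted p = 0.162) had differences of like size without a call. In all, 4 members had an unadjusted p under 0.05 at 72 h. Atirmociclib and ribociclib at 2 µM differed in 4 members at 24 h, against 4.64% of all genes. FBXO5 (-0.98), UBE2C (-0.54) and CCNF (-0.33) were lower in atirmociclib and PTTG1 was higher (0.43). The call for PTTG1 was lost without the first atirmociclib library (0.28) or the third of ribociclib (0.37), that for CCNF without the second of atirmociclib or the first of ribociclib (-0.29 each), and both when only these 2 groups were fitted. At 72 h, 7 members were lower in atirmociclib, against 9.18%: PTTG1 (-1.10), UBE2C (-0.78), FBXO5 (-0.58), CCNF (-0.54), UBE2S (-0.47), CDC20 (-0.45) and CKS2 (-0.42, adjusted p = 0.0228). The call for CKS2 was lost without the first or second library of either group (-0.41 to -0.35).

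Few members were called between doses. AU2-94 at 2 µM lowered UBE2C (-0.55, SE 0.10, adjusted p = 0.0176) and CDC20 (-0.34, SE 0.07, adjusted p = 0.0495) beyond 1 µM at 24 h, against 0.409% of all genes different. With the replicate block the call for CDC20 was lost (adjusted p = 0.0789), leaving 1 of the 2, and neither was called when only the AU2-94 groups were fitted. CDC20 was also lost without any library at 1 µM or the first or the third at 2 µM (-0.35 to -0.27), and UBE2C without the first or the third at 1 µM or the first at 2 µM (-0.57 to -0.43). FBXO5 differed by -0.51 (95% confidence interval -0.78 to -0.25, adjusted p = 0.101) and CCNF by -0.29 (-0.45 to -0.14, adjusted p = 0.114). In this comparison of the AU2-94 doses at 24 h, 7 of the 10 members had an unadjusted p under 0.05 by limma. The median log2 difference of the members was -0.28, so that the lack of further calls does not show equal levels. At 72 h no member differed between the AU2-94 doses by limma, none had an unadjusted p under 0.05, and 0% of all genes were called. Atirmociclib at 2 µM did not differ from 1 µM in any member at 24 h, against 0.0124% of all genes, although 2 members (PTTG1 and UBE2S) had an unadjusted p under 0.05. At 72 h PTTG1 was lower at 2 µM (-0.54, SE 0.11, adjusted p = 0.0123), against 2.19%. This call was lost without the third library at 1 µM (-0.49) or the first at 2 µM (-0.55).

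The change of each effect from 24 h to 72 h was tested as an interaction over all 36 libraries. Where the change passed the test it was toward vehicle, for 6 members in AU2-94 at 1 µM and 7 at 2 µM, 5 and 4 in atirmociclib at 1 and 2 µM, and 7 in ribociclib. Over the 16850 genes tested, 10.1%, 9.26%, 11.3%, 11.7% and 10.5% had a change in this upward direction. CDC20, FBXO5, UBE2C and CCNF changed in all 5 treatments. UBE2C moved by 1.52 and CCNF by 1.35 in AU2-94 at 2 µM (SE 0.12 and 0.09). SKP2, CKS1B and FZR1 were not called in any treatment. The change of FBXO5 in AU2-94 at 1 µM (0.43, adjusted p = 0.0469) was lost under the replicate block, where its adjusted p was 0.0553, and without 9 of the 12 libraries left out in turn (0.36 to 0.44). That of CKS2 in AU2-94 at 2 µM (0.45) was lost without the third vehicle library of 72 h (0.34). That of CKS2 in ribociclib (0.43) was lost without that library (0.32), without the first ribociclib library of 24 h or the second of 72 h (0.36 each), and with only the groups compared.

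The effect on PTTG1 changed by 1.27 and 1.42 in AU2-94 at 1 and 2 µM, by 1.16 in ribociclib and by 0.56 in atirmociclib at 1 µM (SE 0.15, adjusted p = 3.87e-07, 3.88e-08, 1.21e-06 and 0.00708). In atirmociclib at 2 µM the change was -0.38 (95% confidence interval -0.69 to -0.07, adjusted p = 0.0743). UBE2S showed a like pattern, with 0.41, 0.66 and 0.47 in AU2-94 and ribociclib (SE 0.11) but 0.08 and -0.23 in atirmociclib (adjusted p = 0.667 and 0.131). The differences between agents in these changes were not tested, and each time point's direct comparison is given above.

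**Figure D3:**
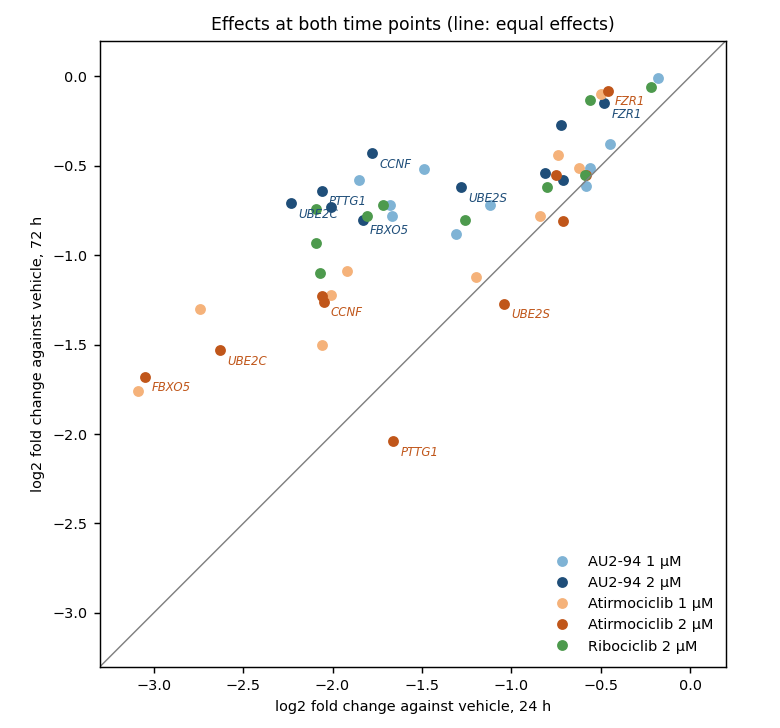
Log2 fold change against vehicle at 24 h (x axis) and at 72 h (y axis) for the 10 members in each of the 5 treatments, with a line where both are equal and names beside some points of AU2-94 and atirmociclib at 2 µM. Most points lie above the line, whereas PTTG1 and UBE2S in atirmociclib at 2 µM lie below it. SKP2 in the same treatment (-0.71 at 24 h and -0.81 at 72 h) and CKS1B in AU2-94 at 1 µM (-0.58 and -0.61) lie just below it.

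The other parts of both ligases were described with lists of partner genes, by counts of genes called. Over all genes, 13.5% to 16.2% were lower and 14.3% to 18.6% higher in a treatment at 24 h. At 72 h, 15.3% to 19.8% were lower and 14.2% to 20.9% higher. Counts near these shares, in this list or those below, are not a trait of the list. Of 14 core subunits of APC/C, 2 to 5 fell and at most 2 rose in a treatment at 24 h, while 1 to 4 fell and none rose at 72 h. The median over the list lay between -0.15 and -0.07 at the earlier time and between -0.18 and -0.07 at the later. ANAPC2, the cullin-like subunit, was lower in all 5 treatments at 24 h (log2 fold change -0.58 to -0.31, SE 0.07) and in none at 72 h. CDC23 was lower in 3 treatments at 24 h and 4 at 72 h (-0.48 to -0.12 and -0.46 to -0.14, SE 0.09). Of 8 genes that act in or on the mitotic checkpoint, 6 were lower in every treatment at 24 h and 3 to 5 at 72 h, when up to 2 were higher. BUB1B had log2 fold changes between -2.46 and -1.21 at 24 h (SE 0.15), and of -1.04 to -0.28 by 72 h. The values of BUB1, the related checkpoint kinase, were -1.68 to -1.0 and, by 72 h, -0.60 to -0.28.

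Of 25 genes whose proteins are known APC/C substrates, 23 to 25 were lower at 24 h and 22 to 25 at 72 h. Their medians were -2.40 to -1.59 and -1.34 to -0.54. RRM2, the ribonucleotide reductase subunit, had log2 fold changes of -4.43 to -1.95 at 24 h (SE 0.17) and -2.20 to -1.02 at 72 h (SE 0.13). AURKB, a mitotic kinase, had -4.11 to -2.06 (SE 0.19) and -2.09 to -0.72 (SE 0.10). ESPL1, the separase that PTTG1 holds inactive, was lower in all 10 comparisons, with log2 fold changes of -3.61 to -2.0 at 24 h (SE 0.25) and -1.68 to -0.59 at 72 h (SE 0.14).

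The SCF core moved little. Of 9 genes of the core and of its activation by NEDD8, at most 1 was lower and 1 to 4 were higher at 24 h, whereas 4 to 6 were lower at 72 h, with medians of -0.22 to -0.09. CUL1, the scaffold, had log2 fold changes of -0.10 to -0.03 at 24 h (SE 0.05, none called) and -0.33 to -0.24 at 72 h (SE 0.06, all 5 called), and UBE2M, the E2 enzyme for NEDD8, -0.19 to -0.12 and -0.37 to -0.16. Of 7 other F-box proteins, at most 1 was lower and 1 to 2 were higher at 24 h, and at 72 h none was lower and 1 was higher. FBXO31 was higher in 4 treatments at 24 h and in all 5 at 72 h (0.19 to 0.28 and 0.33 to 0.47). FBXO43, the relative of FBXO5, was near the filter at 9.96 and 11.9 normalised counts in vehicle and was called in none (-0.99 to 0.65). Of 8 other ubiquitin enzymes, at most 1 was lower and at most 1 higher in a treatment at 24 h. By 72 h there were 1 to 4 that fell and 2 to 3 that rose. CDC34, an E2 enzyme of SCF, was higher in 2 treatments at 24 h and in all 5 at 72 h (0.24 to 0.52, SE 0.08), and UBA6 was lower in 1 at 72 h.

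Of 8 known SKP2 substrates, 3 to 4 were lower at 24 h and 3 to 5 at 72 h, with 1 higher each time. The higher gene was RBL2, in all 5 treatments at both times (0.45 to 0.56 at 24 h and 0.34 to 0.58 at 72 h). CDKN1B, the gene of p27, was called in no treatment at 24 h (-0.13 to 0.11, SE 0.07). At 72 h it was lower in 2 treatments (-0.20 to 0.12, SE 0.06). CDT1 and ORC1, which license replication origins, were lower in all 10 comparisons, at -2.07 to -0.87 and -2.03 to -0.73 at 24 h. Of 7 known cyclin F substrates, 6 to 7 were lower at 24 h and all 7 at 72 h. NUSAP1, a spindle protein, had -3.67 to -1.67 at 24 h (SE 0.11) and -1.93 to -0.40 at 72 h. RRM2, NUSAP1 and CDC6 stand in the lists of both APC/C and cyclin F substrates. These are transcript levels, which do not measure the destruction of the proteins.

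**Figure D4:**
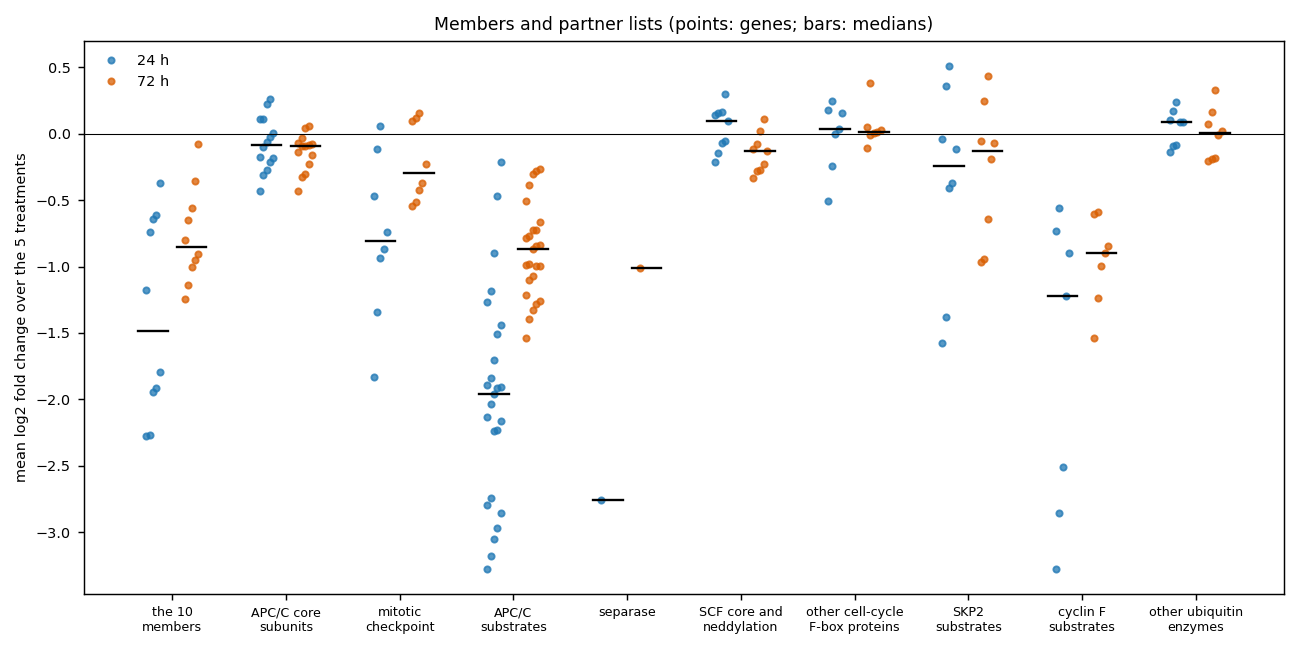
Mean log2 fold change over the 5 treatments (y axis) of the 10 members and of the genes of each partner list (x axis) at 24 h (blue) and 72 h (orange), with bars for medians. The substrates of APC/C lie lowest at 24 h among the lists of several genes, and the core subunits, the SCF core, other F-box proteins and other ubiquitin enzymes lie near 0.

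Across the 12 group means, Pearson's r between members ranged from 0.666 (FZR1 and PTTG1) to 0.99 (CDC20 and CCNF), as a description of points that share vehicle and treatments. The gene outside the members with the most similar pattern among 11346 genes (mean of at least 100 normalised counts) was TPX2 for UBE2C (r = 0.998), H2AC4 for FBXO5 (0.997), FAM72D for CCNF (0.996), G2E3 for CDC20 (0.994), SMC4 for CKS2 (0.982), CDKN3 for PTTG1 (0.975) and SLC7A5 for CKS1B (0.983). TUBA1B was the nearest gene for both SKP2 (0.987) and UBE2S (0.985), and POC1A for FZR1 (0.955), each over 12 group means.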

How the data were processed

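RNA from 36 LNCaP libraries (TRIzol extraction, Universal Plus Total RNA-Seq kit, paired reads) was processed by the authors with nf-core/rnaseq, aligned to GRCh38 with STAR 2.6.1d and analysed with DESeq2. The annotation release, read counter and strand setting are not given in the sources used here. The deposited table holds a normalised signal on the scale of reads, not whole counts: in a library 23.3% to 52.1% of low values were whole multiples of 1 step. No count model was therefore used. Depth per library is unknown, and low values are the least precise.

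Groups came from the labels. Genes with at least 10 normalised counts in at least 3 of the fitted libraries were tested on log2(value + 1) with limma 3.58.1 (trend; R 4.3.3). This scale understates changes of low genes. The 18 libraries of a time point were fitted together, and all 36 for changes between time points. p-values were adjusted by Benjamini-Hochberg within each contrast over all genes tested. Each fold change between treatments rests on 3 replicates, described as biological by the study, and comparisons with vehicle share the same 3 vehicle libraries. Ratios were tested by two-sided exact permutation. On simulated data for AU2-94 at 1 µM against vehicle at 24 h (16288 genes), 90.6% of 106 genes changed 2-fold and 98.9% of 94 changed 4-fold were recovered, and 0 were called in ribociclib, simulated without change. The changed genes were drawn only from genes at a vehicle level well above the filter, with noise independent between genes and libraries. Recovery among lower genes was not measured.

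The members and lists were chosen with earlier results of these data known. Besides the members, the text names the 2 genes of each partner list with the greatest mean change over the 10 comparisons with vehicle. For each member it also names the gene with the highest correlation over group means. The SKP2 substrates CDKN1B and RBL2, and CDC6 as a substrate shared by lists, are named outside this rule. Symbols and positions came from GENCODE 44 (29856 of 29872 rows had a symbol, 10 of 10 members), promoters from RefSeq (GRCh38.p14) and close copies (95% identity over 100 bases or more) from BLAST 2.17.0. Of the LNCaP markers, 5 are reported here. PTTG2 and PTTG3P, listed with separase, were not analysed further.

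The labels give the replicate number as a batch, so a pairing of libraries by number was checked. Deviations from the group mean correlated between same-numbered libraries at 0.0018 on average at 24 h (range -0.09 to 0.112) and -0.0022 at 72 h (range -0.08 to 0.05), each for 45 pairs. The main fits used the group alone, without pairing, and the replicate block was kept as an alternative. Others were the pseudocount (0.5 or 8), no filter or a mean of at least 100, quantile normalisation, equal totals, no trend, only the groups compared, all 36 libraries in 1 fit, and leaving out each library.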

Additional observations from a re-analysis of the deposited data

Results flagged for a closer look

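A change of the effect of treatment between time points, tested as an interaction with limma over 36 libraries and given as the log2 effect at 72 h minus that at 24 h, passed an adjusted p of 0.05 in 29 of 50 combinations of member and treatment. Seeding density differed between the time points along with time. For CDC20 the changes were 0.89 and 1.27 in AU2-94 at 1 and 2 µM, 0.79 and 0.83 in atirmociclib at 1 and 2 µM, and 1.03 in ribociclib. For FBXO5 they were 0.43 and 1.03 in AU2-94, 1.33 and 1.37 in atirmociclib and 0.97 in ribociclib. For UBE2C they were 0.96 and 1.52, 1.43 and 1.11, and 1.35 in the same order, and for CCNF 0.97 and 1.35, 0.82 and 0.79, and 1.00. For PTTG1 they were 1.27 and 1.42 in AU2-94, 0.56 in atirmociclib at 1 µM and 1.16 in ribociclib. For UBE2S they were 0.41 and 0.66 in AU2-94 and 0.47 in ribociclib, and for CKS2 0.45 in AU2-94 at 2 µM and 0.43 in ribociclib. All 29 were toward the vehicle level.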

How the results depend on the processing

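Of the 100 log2 fold changes of members against vehicle, calls were lost for CKS2 in AU2-94 at 1 µM at 72 h and gained for CKS2 in AU2-94 at 2 µM at 72 h and FZR1 in ribociclib at 24 h (-0.28 with equal totals). Calls were kept for 25 of the 39 differences between agents or doses and 26 of the 29 changes of effect under every alternative run. The count of members between atirmociclib and AU2-94 at 2 µM at 24 h (5) was 2 after quantile normalisation and 1 with only the groups compared, and 2 to 4 with 1 library left out. Between atirmociclib and ribociclib at 24 h (4) it was 2 with only the groups compared. Between the AU2-94 doses at 24 h (2) it was 1 without the filter, after quantile normalisation, without the trend and with the replicate block, 4 with all 36 libraries in 1 fit, 0 with only the groups compared, and 0 to 2 with 1 library left out. At 72 h, ribociclib against AU2-94 (1) gave 0 with only the groups compared and 0 to 1 with 1 library left out, the atirmociclib doses (1) 0 to 1, and ribociclib past the fold (1) 1 to 2. Vehicle between time points (0) gave 2 with a mean of at least 100, 1 without the trend and 0 to 1 with 1 library left out.

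FZR1 at 72 h reversed. With 1 library left out its values ran from -0.15 to 0.23 and -0.29 to 0.09 in AU2-94 at 1 and 2 µM, -0.24 to 0.14 and -0.21 to 0.16 in atirmociclib and -0.19 to 0.18 in ribociclib, and that in AU2-94 at 1 µM was 0.04 after quantile normalisation and 0.02 with equal totals. Of the ratios, CKS1B to CKS2 at 24 h ran from -0.01 to 0.06 and UBE2C to UBE2S at 72 h from -0.19 to 0.01 with 1 vehicle replicate left out. Equal totals moved the median of all genes by -0.105 to 0.088. The cause of these shifts was not tested. The replicate block changed no call other than the 4 named with their blocked p above (UBE2S, CDC20, SKP2 and FBXO5).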
